A study of Mus musculus with 8 samples.

Results

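A set of 10 genes that neurons and other brain cells transcribe in response to activity was described in brains of diabetic mice on a ketogenic diet. The genes were Arc, Npas4, Homer1, Nptx2, Ier2, Btg2, Klf4, Ccn1, Plk2 and Sik1, chosen by name as activity-induced genes outside the AP-1, Egr and Nr4a families. They were chosen with earlier results of these data known. All 10 were found among the 17983 gene symbols measured, and all 10 were among the 14895 genes tested. Messenger RNA came from whole brains of male db/db mice, which carry a leptin receptor mutation and become obese and diabetic. Ketogenic brains (4 libraries) came from mice that began a ketogenic diet, rich in fat and poor in carbohydrate, at the age of 9 weeks and were sampled at 6 months. Control brains (4 libraries) came from db/db mice of the same age on a normal diet. Both groups carry the mutation and no lean group was analysed here. The labels do not say whether each library is a single mouse, so p-values measure the spread between libraries.

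Synaptic activity opens calcium channels and NMDA receptors, and the calcium signal reaches transcription factors such as CREB and SRF that are already bound at these genes. Immediate early genes are then transcribed within minutes without new protein synthesis, and a slower wave of genes follows. Some products are themselves regulators of transcription or signalling (Npas4, Klf4, Btg2, Ier2, Sik1), while others act at the synapse or the cell surface (Arc, Homer1, Nptx2, Plk2, Ccn1). Several of them, among them Ccn1, Klf4, Ier2 and Btg2, are also induced by growth factors or flow in blood vessels and glia.

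The promoters of these genes were searched for the letters that CREB recognises. CREB binds the cyclic AMP response element, TGACGTCA, or its shorter form, TGACG. RefSeq promoter windows on GRCm38.p6 matched 6 of the 10 genes (Btg2, Ccn1, Homer1, Klf4, Npas4 and Plk2), with 7 windows in all. The 250 bases before the annotated start are shown for 2 genes that fell in ketogenic brains, Btg2 and Ccn1, and 2 that did not pass, Plk2 and Homer1, with TGACG on either strand in capitals. The Btg2 window is chr1:134079156-134079405 (minus strand), that of Ccn1 chr3:145649986-145650235 (minus), that of Plk2 chr13:110394794-110395043 (plus) and that of Homer1 chr13:93303507-93303756 (plus).
Btg2: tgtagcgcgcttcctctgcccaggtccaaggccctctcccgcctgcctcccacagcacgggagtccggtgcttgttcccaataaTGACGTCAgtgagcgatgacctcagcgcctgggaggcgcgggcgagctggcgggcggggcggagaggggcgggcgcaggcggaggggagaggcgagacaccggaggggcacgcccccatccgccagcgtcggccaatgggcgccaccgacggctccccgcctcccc
Ccn1: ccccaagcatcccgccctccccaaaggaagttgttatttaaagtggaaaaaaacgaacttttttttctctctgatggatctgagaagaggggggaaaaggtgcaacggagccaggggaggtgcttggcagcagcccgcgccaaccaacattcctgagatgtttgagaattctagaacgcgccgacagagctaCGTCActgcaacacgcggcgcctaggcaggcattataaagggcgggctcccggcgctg
Plk2: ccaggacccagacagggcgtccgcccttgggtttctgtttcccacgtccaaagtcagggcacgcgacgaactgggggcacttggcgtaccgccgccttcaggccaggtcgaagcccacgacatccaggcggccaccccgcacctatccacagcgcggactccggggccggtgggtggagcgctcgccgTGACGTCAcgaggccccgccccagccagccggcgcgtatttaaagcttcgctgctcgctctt
Homer1: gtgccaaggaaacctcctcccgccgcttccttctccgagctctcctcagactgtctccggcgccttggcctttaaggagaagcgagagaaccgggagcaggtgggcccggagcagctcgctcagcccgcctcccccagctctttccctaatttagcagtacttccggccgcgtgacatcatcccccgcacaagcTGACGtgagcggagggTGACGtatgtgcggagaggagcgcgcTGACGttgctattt
The full element TGACGTCA, whose copies each hold TGACG on both strands, was found in the Btg2 and Plk2 windows and in 1.55% of 32851 windows of all genes. TGACG on either strand was found in 17.8% of all windows and in at least 1 window of each of the 6 genes. The Homer1 window held 3 copies, and those of Ccn1 and Klf4 1 each. The Npas4 window held 2, but all of its 250 bases lie within exons in GENCODE M21. A second Homer1 window further into the gene held none. The CArG box bound by SRF (1.47% of all windows), the AP-1 site TGANTCA (6.75%) and the Egr site GCGTGNGCG (1.93%) matched none of the 7 windows on either strand. TATAAA was found in the Ccn1 window and in 12.4% of all windows. Both genes that fell and genes that did not pass held TGACG.

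Levels were compared between genes on the deposited FPKM scale, which divides reads by the library's total and by gene length. Plk2 stood at 80.2 ± 6.15 FPKM in ketogenic and 72.2 ± 7.90 FPKM in control brains (SD, n = 4 each), and Arc at 53.5 ± 10.03 FPKM in ketogenic and 88.5 ± 11.9 FPKM in control brains. Nptx2 followed at 25.5 ± 1.42 FPKM in ketogenic and 22.2 ± 1.77 FPKM in control brains, and Homer1 at 14.1 ± 1.41 FPKM in ketogenic and 13.7 ± 1.13 FPKM in control brains. The remaining genes lay lower, from Btg2 at 5.24 ± 0.57 FPKM in ketogenic and 7.50 ± 1.24 FPKM in control brains down to Klf4 at 1.21 ± 0.13 FPKM in ketogenic and 1.32 ± 0.28 FPKM in control brains. In every library of both groups Plk2 lay above Nptx2, Nptx2 above Homer1, Homer1 above Btg2, and Npas4 above Klf4. This order rests on the gene length that the FPKM implies, 9258 bases for Homer1 and 2551 for Nptx2. The longest annotated Homer1 transcript has 5713 bases. Raw counts ran from 4137 to 5754 for Homer1 and from 1822 to 2710 for Nptx2. Whether the implied lengths match the transcripts present was not tested. Taken in the order Btg2, Sik1, Ier2, Ccn1 and Npas4, each gene overlapped the next in both groups. Arc and Plk2 overlapped in control libraries, whereas in ketogenic libraries each Plk2 value (73.6 to 87.6 FPKM) lay above each Arc value (45.1 to 67.9 FPKM).

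**Figure D1:**
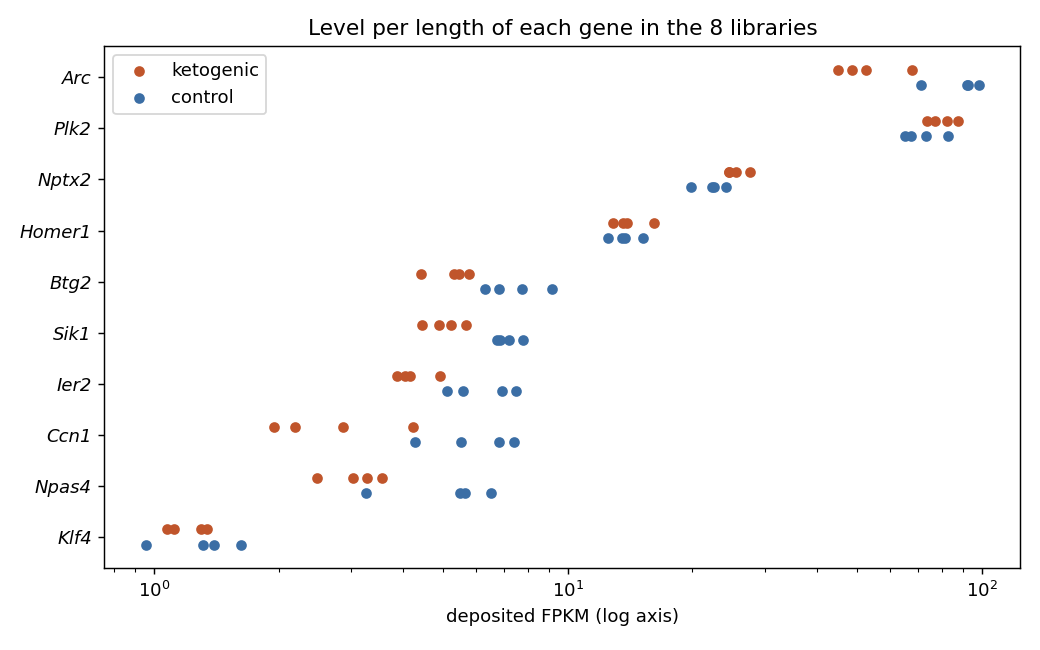
Deposited FPKM on a log axis for each of the 10 genes, with 1 point per library for the 4 ketogenic and 4 control libraries. Arc, Plk2, Nptx2 and Homer1 lie above 10 FPKM in all libraries, and the other 6 genes below it.

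Total counts ran from 38163795 to 40233361 in ketogenic and from 34450860 to 38738800 in control libraries. Ketogenic library 3 stood apart from the rest, at -34.4 on the first principal component (22.9% of the variance) against -11.2 to -2.90 for the other ketogenic libraries and 5.94 to 22.7 for control libraries. It had the lowest mean log2 CPM of thalamus markers (4.42, other libraries 5.30 to 5.65) and of hypothalamus markers (1.06, others 2.00 to 3.38). Results are therefore also given without it. Ketogenic libraries 2 and 4 lay above the control libraries in hypothalamus markers (3.38 and 2.97, control 2.00 to 2.14). Cerebellum markers ran from 1.105 to 2.252 in ketogenic and from 1.486 to 1.7 in control libraries. Neuron markers, the check of the labelled tissue, were abundant, with summed levels of 8685 to 10042 CPM (counts scaled to a common library total) in ketogenic and 9294 to 10313 CPM in control libraries, 1 of 10 lower and 0 markers at 0. Red blood cell markers differed most, with 4 of 5 higher and summed levels of 69.4 to 114.1 CPM in ketogenic and 15.3 to 52.4 CPM in control libraries. Markers are counted as lower or higher in ketogenic brains at an adjusted p under 0.05 in edgeR's quasi-likelihood test. By this rule 3.22% of all tested genes were lower and 3.3% higher. Of 8 astrocyte markers 4 were lower and 1 higher (4667 to 5288 CPM in ketogenic, 4779 to 5607 CPM in control). Of 19 such values per library (17 lists, total count and detected genes) none passed an exact permutation test after adjustment (smallest p = 0.0286, for red blood cells, adjusted p = 0.543). With 70 possible assignments of the libraries, 0.0286 is the smallest p this test can give. A single value could therefore hardly pass after adjustment, and the test does not show that red blood cell markers were alike. The part of blood, astrocytes, brain regions and ketogenic library 3 in the results was not tested beyond the values given without that library. In bulk tissue, fewer cells of a type and less RNA per cell cannot be told apart.

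Of the 10 genes 6 fell in ketogenic brains (Arc, Npas4, Ier2, Btg2, Ccn1 and Sik1), 0 rose and 4 did not pass (Homer1, Nptx2, Plk2 and Klf4). The threshold was 0.05 for the p of edgeR's quasi-likelihood test, adjusted by the Benjamini-Hochberg method over all tested genes, of which 3.22% were lower and 3.3% higher by this rule. At an unadjusted p under 0.05, 6 of the 10 were lower and 1 higher, where 12.5% of all tested genes were lower and 12.1% higher, so the 1 higher is near the background. DESeq2 and limma-voom each gave 6 lower and 0 higher. DESeq2 called 6.34% of all genes lower and 6.44% higher, and limma-voom 2.81% lower and 3.03% higher. The median log2 change of the 10 was -0.52, beside -0.0029 for all tested genes. Because the 10 genes were chosen with earlier results of these data known, these counts and medians are a description. All 6 falls stood without ketogenic library 3 (2.55% of all genes lower). The count was 3 (Arc, Ccn1 and Sik1) without control library 2 (0.705% of all genes), 1 (Arc) when ketogenic libraries 3 and 4 were both left out (0.335%), and 0 on the unfiltered log2(FPKM + 1) scale with limma (0.161%).

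**Figure D2:**
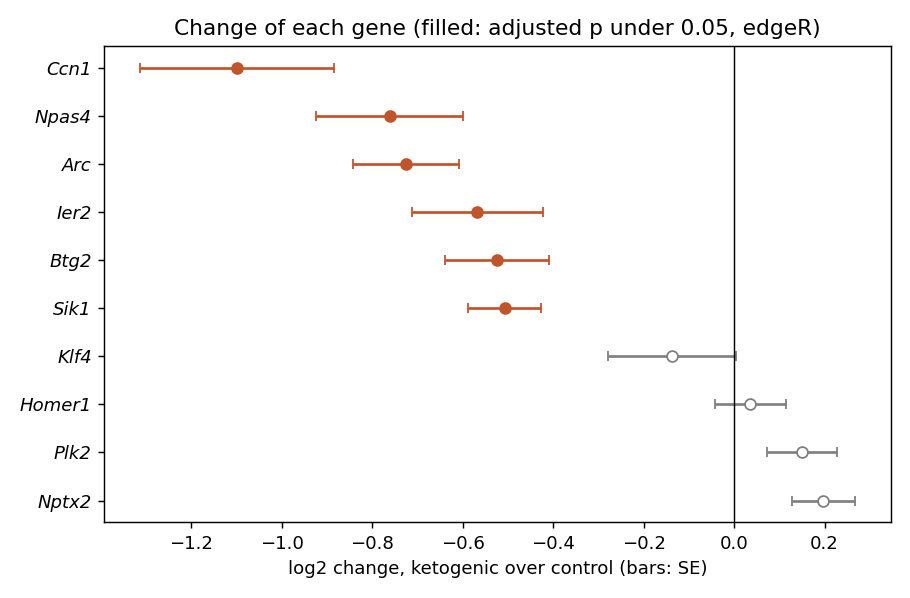
Log2 change of each gene, ketogenic over control, with its standard error from edgeR. Filled points passed at an adjusted p under 0.05 and span -1.10 (Ccn1) to -0.51 (Sik1), while the 4 open points lie between -0.14 (Klf4) and 0.20 (Nptx2).

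Arc and Npas4, which neurons induce with activity, fell by similar amounts. Arc encodes a capsid-like protein of the postsynapse that promotes removal of AMPA receptors, and its messenger RNA is carried into dendrites. It lies at chr15:74669083-74672570 (minus strand, GENCODE M21). Arc had 161.5, 135.7, 213.4 and 145.6 CPM in ketogenic libraries 1 to 4, against 285.0, 300.0, 219.4 and 280.3 CPM in control libraries 1 to 4. The groups did not overlap, but ketogenic library 3 and control library 3 nearly met. Arc was 1.65-fold lower in ketogenic brains (log2 change -0.73 ± 0.12 SE; edgeR, adjusted p = 0.00597), and its log2 change was -0.87 (adjusted p = 5.48e-05) without ketogenic library 3. The call stood whichever single library was left out. Of 8 excitatory neuron markers 1 was lower (Neurod6, log2 change -0.42, edgeR adjusted p = 0.0468) and 0 higher. Their summed levels were 5139 to 7150 CPM in ketogenic and 5446 to 6287 CPM in control libraries. The part of excitatory neurons in the Arc and Npas4 results was not tested.

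Npas4 encodes a neuron-specific bHLH-PAS transcription factor that is induced by calcium entry and regulates inhibitory synapses. It lies at chr19:4984355-4990316 (minus strand). Npas4 had 19.6, 20.7, 23.6 and 15.7 CPM in ketogenic libraries 1 to 4, against 36.9, 41.8, 21.1 and 35.2 CPM in control libraries 1 to 4. Control library 3 lay among the ketogenic values, so the groups overlapped. Npas4 was 1.70-fold lower (log2 change -0.76 ± 0.16 SE; edgeR, adjusted p = 0.0178). The change was -0.93 (adjusted p = 0.00214) without control library 3, and -0.72 and -0.64, no longer past the threshold, without control library 1 (adjusted p = 0.0712) or 2 (0.0631). Control library 3 was thus the lowest control library for both Arc and Npas4.

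Ier2, Btg2 and Sik1, which encode nuclear or signalling regulators induced in many cell types, fell as well. Sik1 is a salt-inducible kinase transcribed through CREB that phosphorylates CREB's coactivators of the CRTC family and so restrains CREB (chr17:31844250-31855804, minus strand). Sik1 had 22.2, 25.3, 20.6 and 23.1 CPM in ketogenic libraries 1 to 4, against 33.0, 35.1, 30.8 and 30.8 CPM in control libraries 1 to 4. The groups were well apart, with the highest ketogenic value 25.3 CPM and the lowest control value 30.8 CPM. Sik1 was 1.42-fold lower (log2 change -0.51 ± 0.08 SE; edgeR, adjusted p = 0.00558), and no single library was needed for the call.

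Btg2 is an antiproliferative protein that binds the CCR4-NOT complex, which shortens messenger RNA tails (chr1:134075170-134079120, minus strand). Btg2 had 13.7, 17.5, 16.8 and 16.5 CPM in ketogenic libraries 1 to 4, against 21.3, 23.9, 28.3 and 19.3 CPM in control libraries 1 to 4. No ketogenic value reached a control value. Btg2 was 1.44-fold lower (log2 change -0.52 ± 0.11 SE; edgeR, adjusted p = 0.0189), and did not pass without control library 2 (-0.51, adjusted p = 0.0596) or 3 (-0.41, 0.0533).

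Ier2, a nuclear protein of the immediate early response family, lies at chr8:84661331-84662852 (minus strand). Ier2 had 6.34, 6.07, 7.70 and 5.75 CPM in ketogenic libraries 1 to 4, against 8.62, 11.4, 10.6 and 7.70 CPM in control libraries 1 to 4. Ketogenic library 3 and control library 4 were level to 3 digits, and the other ketogenic values were lower. Ier2 was 1.48-fold lower (log2 change -0.57 ± 0.15 SE; edgeR, adjusted p = 0.0343). With single libraries left out, Ier2 passed only without ketogenic library 3 (adjusted p = 0.0249) or control library 4 (0.0109), and the adjusted p reached 0.106 without control library 2.

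Ccn1 had the largest change of the 10. It encodes a secreted matricellular protein that binds integrins and is made by vascular cells and fibroblasts as well as neurons (chr3:145646976-145649981, minus strand). Ccn1 had 3.96, 8.44, 5.97 and 4.36 CPM in ketogenic libraries 1 to 4, against 11.3, 13.8, 15.1 and 8.57 CPM in control libraries 1 to 4. Ketogenic library 2 and control library 4 lay close together, and the rest were far apart. Ccn1 was 2.14-fold lower (log2 change -1.10 ± 0.21 SE; edgeR, adjusted p = 0.0121). Ccn1 passed with each library left out, at changes of -1.36 (without ketogenic library 2) to -0.96 (without ketogenic library 1). Vascular marker levels overlapped between the groups. Summed endothelial markers (0 of 10 lower, 1 higher) were at 258 to 292 CPM in ketogenic and 247 to 296 CPM in control libraries, and summed mural cell markers (1 of 8 lower, Rgs5) were at 159 to 184 CPM in ketogenic and 161 to 217 CPM in control libraries. Control library 3, highest in Ccn1, had the lowest mean of mural cell markers. Meningeal fibroblast markers summed to 198 to 256 CPM in ketogenic and 250 to 282 CPM in control libraries. None of these 8 passed the threshold. At an unadjusted p under 0.05, 2 were lower (12.5% of all tested genes), and with DESeq2 1 was lower (6.34% of all genes). The part of fibroblasts in the Ccn1 result was not tested.

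Homer1, Nptx2 and Plk2 are abundant synaptic genes, and none of them passed. Homer1 is a scaffold that ties metabotropic glutamate receptors to the postsynaptic density. Activity induces a short isoform that lacks the coiled coil and uncouples the long ones. Homer1 had 129.0, 123.6, 153.3 and 116.5 CPM in ketogenic libraries 1 to 4, against 129.0, 115.1, 125.9 and 139.6 CPM in control libraries 1 to 4. The groups overlapped throughout, and the log2 change was 0.04 ± 0.08 (SE, edgeR adjusted p = 0.827) with a 95% interval of -0.13 to 0.20. Its sign turned without ketogenic library 3 (-0.05) or control library 2 (-0.01), and the change was 0.21 (adjusted p = 0.249) after each library's trend on GC content and length was taken out. The gene (chr13:93299635-93405129, plus strand) has 12 transcripts in GENCODE M21, the longest of 5713 bases. The deposited FPKM implies a gene length of 9258 bases, so counts were pooled over transcripts and the short isoform cannot be read from them. Gene models Gm47075 and Gm47088 overlap Homer1 on the same strand and have no row of their own here. None of the other 9 genes overlapped an annotated gene.

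Nptx2 encodes a secreted pentraxin that clusters AMPA receptors, among others at excitatory synapses on parvalbumin interneurons (chr5:144545902-144557478, plus strand). Nptx2 had 62.8, 64.1, 72.2 and 61.3 CPM in ketogenic libraries 1 to 4, against 57.7, 57.2, 51.0 and 61.1 CPM in control libraries 1 to 4. Every ketogenic value lay above every control value, though 61.3 CPM in ketogenic library 4 and 61.1 CPM in control library 4 nearly met. By this measure 7.22% of tested genes were higher without overlap and 6.51% lower, and among the 10 genes 1 was higher and 5 lower. The log2 change was 0.20 ± 0.07 (SE, edgeR adjusted p = 0.0955) with a 95% interval of 0.05 to 0.34. It passed without control library 4 (adjusted p = 0.0414) and not without any other single library.

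Plk2 is a polo-like kinase that acts in slow weakening of overactive synapses through its substrate SPAR (chr13:110395046-110400844, plus strand). Plk2 had 232.4, 212.5, 252.1 and 201.9 CPM in ketogenic libraries 1 to 4, against 191.2, 182.2, 206.6 and 230.2 CPM in control libraries 1 to 4. The ketogenic values tended to the upper part of the range but overlapped the control values. The log2 change was 0.15 ± 0.08 (SE, edgeR adjusted p = 0.248), with a 95% interval of -0.01 to 0.31, and was 0.09 without ketogenic library 3.

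Klf4, a zinc-finger transcription factor of stem cells, endothelium and neurons (chr4:55527143-55532466, minus strand), did not pass either. Klf4 had 8.13, 9.98, 8.66 and 9.59 CPM in ketogenic libraries 1 to 4, against 7.33, 12.2, 10.6 and 9.83 CPM in control libraries 1 to 4. Control libraries 1 and 2 spanned all other values. The log2 change was -0.14 ± 0.14 (SE, edgeR adjusted p = 0.604) with a 95% interval of -0.44 to 0.16.

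**Figure D3:**
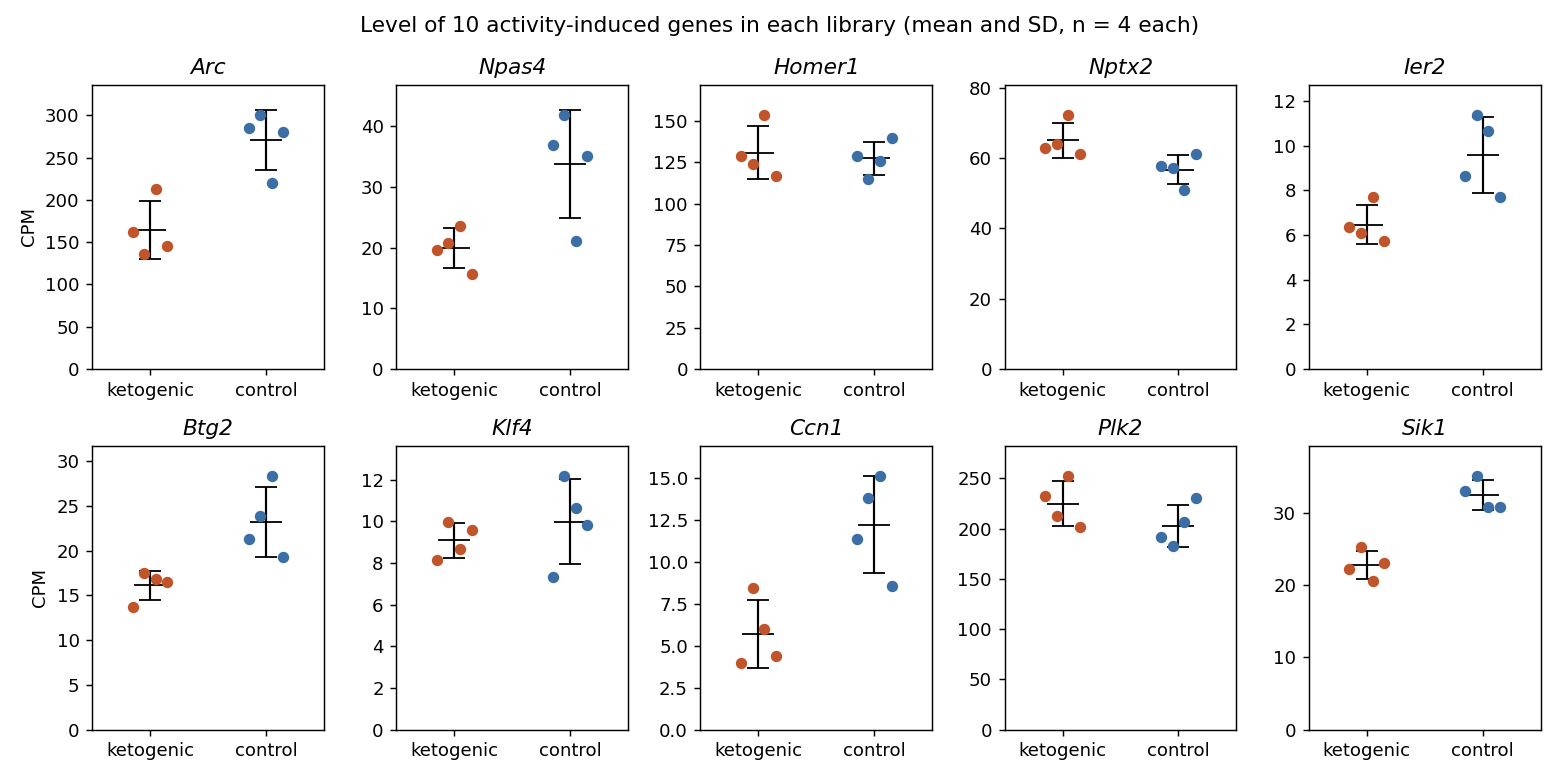
CPM of each of the 10 genes in the 4 ketogenic and 4 control libraries, with the mean and SD of each group and axes from 0. Arc, Ier2, Btg2, Ccn1 and Sik1 are lower in ketogenic libraries without overlap, Npas4 is lower with control library 3 among the ketogenic values, and Nptx2 is higher without overlap.

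Within each group the genes did not share a single order of libraries. Among ketogenic libraries, number 3 was highest for Arc, Npas4, Homer1, Nptx2, Plk2 and Ier2, yet lowest for Sik1. Number 2 was highest for Ccn1, Btg2, Klf4 and Sik1. Among control libraries, number 3 was lowest for Arc, Npas4 and Nptx2 and highest for Btg2 and Ccn1. In log2 units from its own mean, control library 3 was at -0.27 for Npas4 and 0.90 for Ccn1.

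**Figure D4:**
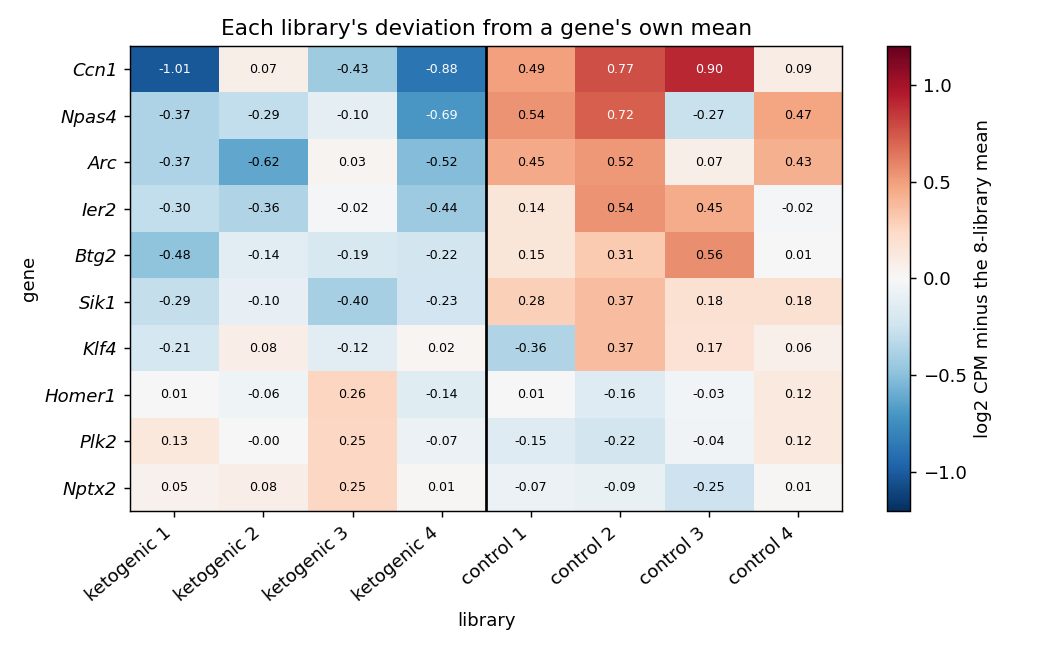
Log2 CPM of each gene minus its mean over the 8 libraries, with ketogenic libraries left of the line and control libraries right of it. Control library 3 is at 0.07 for Arc and -0.27 for Npas4 but at 0.90 for Ccn1 and 0.56 for Btg2, and ketogenic library 3 is at 0.25 to 0.26 for Homer1, Plk2 and Nptx2.

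Ratios between the genes within a library were computed for all 45 pairs after the values were seen. That a gene that fell and one that did not differ in ratio follows from the calls in the same libraries, so the ratios are a description. None of the 45 passed an exact two-sided permutation test after adjustment (smallest adjusted p = 0.0756). With 70 possible assignments the smallest p of this test is 0.0286, which 17 of the 45 pairs reached, so little could pass after adjustment. The log2 ratio of Arc to Homer1 was 0.31 in ketogenic and 1.08 in control libraries, that of Arc to Nptx2 was 1.31 in ketogenic and 2.25 in control libraries, and that of Arc to Plk2 was -0.47 in ketogenic and 0.42 in control libraries. For these 3 ratios all ketogenic libraries lay below all control libraries.

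Other activity-induced genes were split by speed. Their lists were also chosen with earlier results of these data known, so their counts and medians are a description. Of 35 other rapid genes, which include the AP-1, Egr and Nr4a genes, 15 fell, 0 rose and 20 did not pass, with a median log2 change of -0.31. By the adjusted threshold 3.22% of all tested genes were lower and 3.3% higher. At an unadjusted p under 0.05, 20 of the 35 were lower and 0 higher (12.5% and 12.1% of all tested genes). DESeq2 gave 15 lower and 0 higher (6.34% and 6.44% of all genes), and limma-voom 13 and 0 (2.81% and 3.03%). Fos, a subunit of AP-1, averaged 29.5 ± 3.38 CPM in ketogenic and 60.8 ± 7.28 CPM in control libraries (SD, n = 4 each), a larger change than those of Arc and Npas4 at -1.04 in log2. Apold1, a vascular early response gene, had the lowest log2 change at -1.61 ± 0.34 (edgeR adjusted p = 0.018), with 3.27 ± 0.81 CPM in ketogenic and 9.97 ± 6.69 CPM in control libraries, and the groups overlapped. The Apold1 call was lost with limma-voom (-1.40, adjusted p = 0.0554), without ketogenic library 2 (-1.48, 0.0641) and on each FPKM scale (-0.89 with log2(FPKM + 1)), and the change was -1.05 without control library 3. The clock gene Per1 was 1.25-fold and the zinc-finger gene Klf10 1.56-fold lower, and the Per1 call was lost without ketogenic library 2 or control library 1 or 2 (adjusted p of up to 0.0703). Without ketogenic library 2 the number of rapid genes lower was 9.

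Of 24 slower activity-induced genes none fell, 2 rose and 22 did not pass, with a median log2 change of 0.03. Of all tested genes 3.22% were lower and 3.3% higher. At an unadjusted p under 0.05, 2 were lower and 4 higher, near the shares of all tested genes (12.5% and 12.1%). DESeq2 gave 0 lower and 3 higher (6.34% and 6.44% of all genes), and limma-voom 0 and 2 (2.81% and 3.03%). Vgf, a neuropeptide precursor induced by neurotrophins, averaged 291.0 ± 25.5 CPM in ketogenic and 248.8 ± 9.06 CPM in control libraries (log2 change 0.23, edgeR adjusted p = 0.0407). Cdkn1a, the cell cycle inhibitor p21, averaged 35.1 ± 2.72 CPM in ketogenic and 25.1 ± 4.97 CPM in control libraries (0.48, adjusted p = 0.025). Neither passed when control library 1 or 2 or ketogenic library 2 or 4 was left out (adjusted p of up to 0.122 for Vgf and 0.096 for Cdkn1a). Vgf also did not pass without library 3 of either group (0.0787 and 0.0793) or after the GC and length correction (0.261). Inhba, an activin subunit (0.52 ± 0.18), and Syt4, a synaptotagmin (-0.12 ± 0.05), did not pass. A test of rapid against slower genes was not made.

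**Figure D5:**
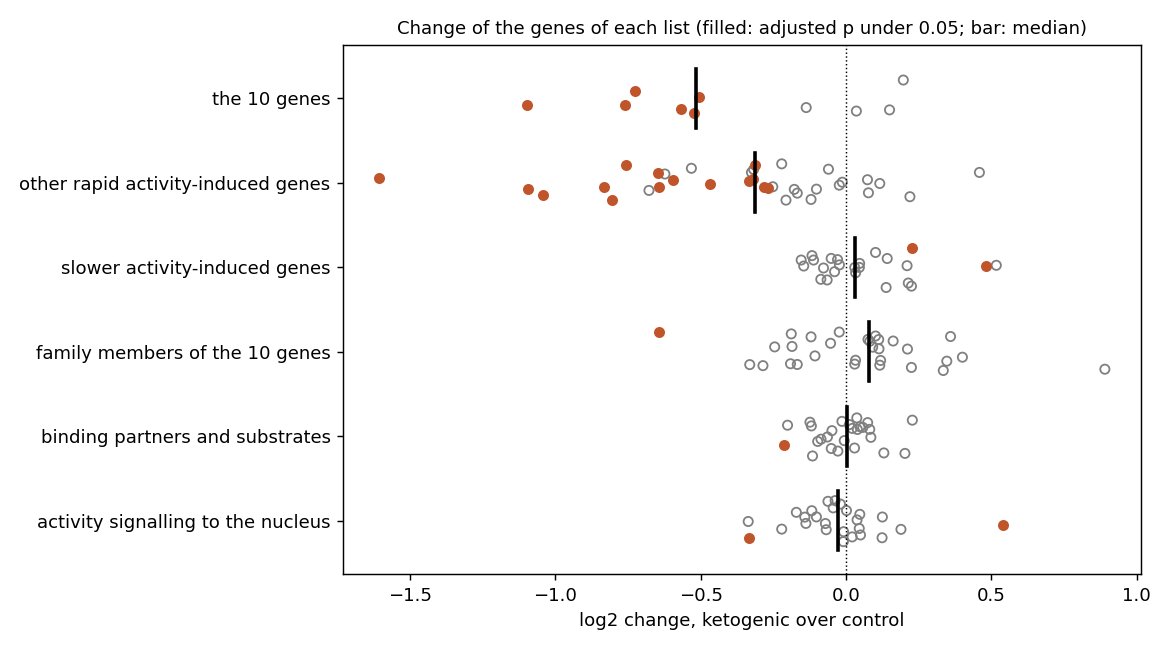
Log2 change, ketogenic over control, of each gene in 6 lists, with filled points past an adjusted p of 0.05 and a bar at each median. The medians are -0.52 for the 10 genes, -0.31 for other rapid genes and 0.03 for slower genes, and between -0.03 and 0.08 for the last 3 lists.

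Relatives and partners of the 10 genes mostly did not pass. Of 30 family members 1 fell (Klf10, also counted among the rapid genes), 0 rose and 29 did not pass. This is near the shares of all tested genes (3.22% lower and 3.3% higher). DESeq2 called 2 lower and 2 higher (6.34% and 6.44% of all genes), and limma-voom 1 and 0 (2.81% and 3.03%). At an unadjusted p under 0.05, 6 of the 30 were lower and 3 higher, beside 12.5% and 12.1% of all tested genes. Nptxr, the membrane-bound partner of Nptx2, had a log2 change of 0.35 ± 0.10 (edgeR adjusted p = 0.0566), at 32.8 ± 1.54 CPM in ketogenic and 25.8 ± 4.61 CPM in control libraries without overlap. The polo-like kinase genes Plk3 and Plk5 had changes of -0.33 and 0.36 (adjusted p = 0.0673 and 0.0687). Of 26 binding partners and substrates 1 fell, the AMPA receptor subunit Gria4 (-0.21 ± 0.05, adjusted p = 0.0291), a call lost after the GC and length correction (0.211) and without control library 1 or 2 or any single ketogenic library (up to 0.0956). None of the 26 rose, and of all tested genes 3.22% were lower and 3.3% higher. At an unadjusted p under 0.05, 2 of the 26 were lower and 3 higher, near the shares of all tested genes (12.5% and 12.1%). DESeq2 gave 1 lower and 2 higher (6.34% and 6.44% of all genes), and limma-voom 1 and 0 (2.81% and 3.03%). Shank2, Hdac4 and Crtc3 had changes of 0.20, 0.23 and -0.20 that did not pass.

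Of 26 genes that carry the activity signal to the nucleus 1 fell and 1 rose, near the shares of all tested genes (3.22% lower and 3.3% higher). At an unadjusted p under 0.05, 4 were lower and 3 higher, where 12.5% of all tested genes were lower and 12.1% higher. DESeq2 gave 1 lower and 2 higher (6.34% and 6.44% of all genes), and limma-voom 1 and 1 (2.81% and 3.03%). Creb1, which encodes CREB, averaged 49.8 ± 4.34 CPM in ketogenic and 62.8 ± 1.36 CPM in control libraries (log2 change -0.33 ± 0.07 SE; edgeR, adjusted p = 0.0137). Camkk1, a calcium/calmodulin-dependent kinase kinase, averaged 142.8 ± 16.7 CPM in ketogenic and 98.2 ± 13.7 CPM in control libraries, a change of 0.54 ± 0.09 (adjusted p = 0.00735). The Creb1 call was lost after the GC and length correction (adjusted p = 0.143) and without both ketogenic libraries 3 and 4 (0.0869), and the Camkk1 call stood in both. Mef2c, a transcription factor of activity-regulated synapses, and Ntrk2, the BDNF receptor, had changes of -0.34 ± 0.11 and 0.12 ± 0.05 that did not pass. Heat shock genes, listed as signs of handling stress, had 0 of 8 past the threshold in either direction. At an unadjusted p under 0.05, 2 were lower and 0 higher (12.5% and 12.1% of all tested genes). With DESeq2 1 was lower (6.34% of all genes), and with limma-voom 0 (2.81%).

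Outside these lists, the genes most like the 10 were sought by their deviations over the 8 libraries. The 5 nearest to the median deviation of the 10 genes were Zfp367, Zkscan8, Stambpl1, Arl5b and Zfp729a, with mean absolute differences of 0.04 to 0.06 in log2. Because the 10 genes' median deviation separates the diets in the same libraries, negative log2 changes of these 5 (-0.43 to -0.31) follow from the choice. Stambpl1 and Zfp729a did not pass (edgeR adjusted p = 0.054 and 0.0613).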

How the data were processed

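Messenger RNA of 8 brain libraries was sequenced, 4 from ketogenic and 4 from control db/db mice. Per the labels' protocols, each library was made from 1.3 ug of total RNA with a SMARTer kit. The authors deposited raw counts per gene symbol and FPKM values, which equal the count divided by a fixed gene length and the column total (largest relative spread of the implied length 1.79e-07, over 14009 genes with at least 10 counts in each library). The submitters' processing notes name the builds GRCm38 and mm10. Aligner, counter, strand setting and annotation: not given in the sources used here.

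Counts were fitted with edgeR 4.0.16 (scaling by TMM, its own low-count filter, quasi-likelihood F test on diet) over 14895 genes. The SE is the log2 change divided by the square root of F, and 95% intervals use the t distribution with the fit's degrees of freedom. Marker values are means of log2 CPM, computed here from the deposited counts (prior count 2). Gene bounds are from GENCODE M21 and promoter windows from RefSeq, both on GRCm38. DESeq2 1.42.0, limma 3.58.1 and the other alternatives are described with their effect at the end. The GC and length correction subtracts from each library a loess trend (span 0.3) of its deviations on GC content and log2 length, with GC known for 99.3% of tested genes.

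The 10 genes, the other lists and the rule for naming genes were chosen with earlier results of these data known. That rule took all 10 members, genes past the threshold in the other lists, and up to 4 genes of smallest p per list. On simulated counts of ketogenic against control (14895 genes), 76 of 100 genes with a 1.5-fold change and 87 of 100 with a 2-fold change were recovered with 9 false calls, and 0 calls were made when no gene was changed.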

Additional observations from a re-analysis of the deposited data

Results flagged for a closer look

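Among 54 groups of 4 libraries checked for a single distant library (the 10 genes and 17 marker and stress lists in each diet), 3 were picked out, and chance picks about 1 in 20. None of the 20 groups of the 10 genes was among them. Control library 3 had a mean log2 CPM of mural cell markers of 3.59, below the other control libraries at 3.88 to 3.90; it was also the control library highest in Ccn1 and Btg2. Ketogenic library 3 had a mean of meningeal fibroblast markers of 3.49, below the other ketogenic libraries at 3.81 to 3.82. Control library 2 had a mean of choroid plexus markers of 3.58, below the other control libraries at 4.16 to 4.24.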

How the results depend on the processing

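Of the 10 genes, Arc and Sik1 passed in 22 of 24 alternatives, Ccn1 in 20, Npas4 and Btg2 in 17, and Ier2 in 14, always with the same sign. Over the 8 fits that leave out a single library, the number of the 10 genes lower ran from 3 to 6, the number higher from 0 to 1, and all genes past the threshold from 146 to 1900. The number lower was 2 at an adjusted p under 0.01, 1 with log2(FPKM + 0.1) and 0 with log2(FPKM + 1), both unfiltered, 4 with log2(FPKM + 1) on filtered genes, and 1 without ketogenic libraries 3 and 4. It was 6 with each other scaling of the counts, each other filter on the counts in edgeR, DESeq2, limma-voom and the GC and length correction. At an adjusted p under 0.1 there was 1 higher, Nptx2. Homer1, at 0.04, ran with single libraries left out from -0.0469 (ketogenic library 3) to 0.0865 (ketogenic library 4). It was 0.21 with the GC and length correction and -0.0106 with ketogenic libraries 3 and 4 left out. Syt4, at -0.12, turned to 0.0154 with the GC and length correction and to 0.0147 with that correction and the replicate block. All genes past the threshold, 971 in the reported fit, numbered 1719 with DESeq2, 297 with the GC and length trend removed, 489 with log2(FPKM + 1) on filtered genes, 64 and 88 with log2(FPKM + 1) and log2(FPKM + 0.1) unfiltered, 90 without ketogenic libraries 3 and 4, and 79 and 2009 at adjusted p under 0.01 and 0.1. The causes were not tested. A replicate block gave 1528 genes, and 6 of the 10 lower. Same-numbered libraries correlated at 0.02 to 0.08 in their deviations, and not every library correlated best with its own number. Correlations this weak cannot decide whether the numbers pair the samples, and the labels do not say so.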
